A study of Mus musculus with 4 samples.

Results

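The genes described here are 10 markers of excitatory neurons in layers 2/3 and 4 of mouse cerebral cortex: Cux1, Cux2, Rorb, Rspo1, Scnn1a, Otof, Rasgrf2, Ndst4, Ptpn3 and Inhba. They were taken by symbol from count tables of 32531 gene names, and all 10 were present and passed the filter on low counts that left 16600 genes. RNA was measured by sequencing in 4 libraries from the cortex of adult mice of line NIDA030, in which regulatory sequence of Cbln1 drives an EGFP-tagged form of Rpl10a, a protein of the large ribosomal subunit. The 2 IP libraries hold RNA of ribosomes captured with an anti-EGFP antibody, a method called translating ribosome affinity purification, and the 2 input libraries hold total RNA of the cortex homogenate. Both groups carry the transgene, are numbered 2 and 4, and no untagged control was analysed here. Whether a group's libraries came from different animals is not stated, so each p-value reflects only how far these libraries spread, which may be technical.

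Neurons of layer 2/3 connect areas of cortex with each other, and layer 4 takes the main input from sensory thalamus. Cux1 and Cux2 are homeobox transcription factors of layers 2 to 4, Rorb is the nuclear receptor that marks layer 4, and Rspo1 and Scnn1a are widely used layer 4 markers. Otof and Rasgrf2 are used as markers of layer 2/3. In a capture from tagged cells, a transcript enriched in the tagged cells is expected to be high in IP relative to input, although a difference between ribosome-bound and total RNA of the same cells moves the ratio too. In such bulk samples, fewer cells of a type and less RNA per cell cannot be told apart.

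Gene counts per library were 41334423 and 47567384 in IP, and 41385301 and 39750468 in input. Values are counts scaled to the library size after TMM normalisation (CPM), and a floor of 3 counts corresponds to 0.0660 to 0.0790 CPM, which covers counting error only. Cbln1, the gene whose regulatory sequence drives the tag, stood at 99.3 and 68.7 CPM in IP, against 11.9 and 8.55 CPM in input. Defining markers of cortical glutamatergic neurons were well detected in both groups, among them Slc17a7, the vesicular glutamate transporter of cortex, at 739 and 669 CPM in IP and 487 and 557 CPM in input. Emx1, a homeobox factor of cortical progenitors and neurons, was lower, at 9.87 and 10.1 CPM in IP and 8.999 and 7.74 CPM in input. Reads in ambiguous positions were 1.54% in both IP libraries and 5.07% and 5.09% of all records in input, and IP was run on lane 1 but input on lane 2, so the lane cannot be told apart from the group.

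Of the 10 markers, 2 rose in IP (Scnn1a and Ptpn3), 5 fell (Cux1, Rorb, Rspo1, Inhba and Ndst4) and 3 did not pass the test (Cux2, Otof and Rasgrf2). Calls were made at a Benjamini-Hochberg adjusted p under 0.05 over all genes in edgeR's quasi-likelihood test. Across all genes tested, 45.8% were called, 23.4% higher and 22.4% lower in IP. The libraries of the groups did not overlap in 8 markers, against 73.0% of all genes: IP lay below input in 5 (37.8% of all genes) and above it in 3 (35.3%). The median log2 fold change of the 10 markers was -0.32, against -0.04 over all genes tested. It lies midway between Cux1 (-0.625) and Cux2 (-0.02), with no marker between them. Leaving out a single marker that fell, such as Rorb, moves the median to -0.02. Leaving out a single marker that did not fall moves it to -0.625. The summed level of the 10 markers was 653 and 742 CPM in IP, against 822 and 937 CPM in input. Both IP libraries lay below both input libraries. Without Rorb the sums overlapped, at 507 and 581 CPM in IP, against 545 and 616 CPM in input. Under scaling by library sizes alone the median of all genes moved to -0.29 and that of the markers to -0.58, and 1 marker rose and 6 fell.

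The markers differed in how deeply they were counted. Rorb, Rasgrf2, Cux1, Ptpn3 and Cux2 averaged between 50 and 500 CPM over the libraries, where 43.9% of genes rose and 21% fell. The other 5 averaged between 5 and 50 CPM, where 28.1% of genes rose and 20.4% fell. Of the 5 markers that fell, Rorb and Cux1 belong to the class with more reads and Rspo1, Inhba and Ndst4 to the class with fewer.

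**Figure D1:**
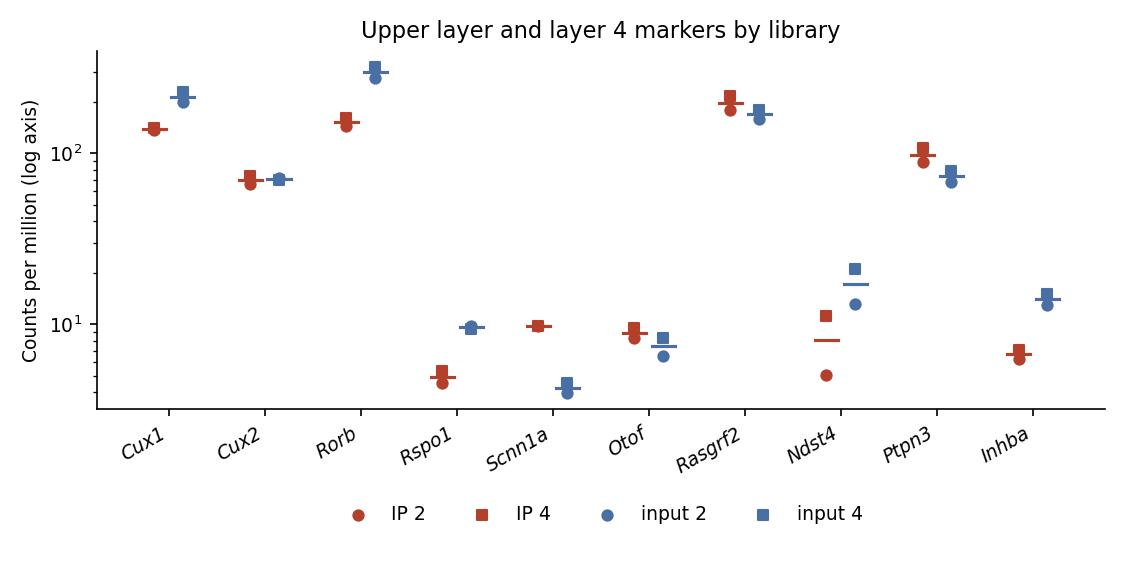
CPM on a log axis for each marker in each library, with IP left of input, circles for number 2, squares for number 4, and bars for the mean of each group. Rorb, Cux1, Rspo1, Inhba and Ndst4 lie lower in both IP libraries, Scnn1a and Ptpn3 lie higher, and Ndst4 has the widest spread within each group.

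Among the transcription factors, Rorb was the marker with the highest level per exonic length in input, and it fell in IP. Rorb (retinoic acid receptor-related orphan receptor beta) is required for the clustering of layer 4 neurons into barrels in mouse somatosensory cortex. Rorb stood at 146 and 161 CPM in IP, against 277 and 320 CPM in input. As a log2 ratio of IP over input (the fold change of the fit) this was -0.96 (SE 0.10, edgeR quasi-likelihood test, adjusted p = 3.02e-07). Between libraries of the same number it was -0.93 and -0.99, and over 11 alternative settings the value stayed between -1.22 and -0.77. Both IP libraries lay far below both input libraries, and the gap between groups was wider than the spread within either.

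Cux1 fell and Cux2 did not pass the test. Both encode homeodomain proteins with CUT repeats, related to Drosophila cut, and in mouse cortex both are known for dendrite and synapse formation in upper layer neurons. Cux1 stood at 138 and 140 CPM in IP, against 199.6 and 229 CPM in input, or a log2 ratio of -0.62 (SE 0.10, edgeR adjusted p = 3.53e-05). Cux2 stood at 66.5 and 73.6 CPM in IP, against 72.2 and 69.8 CPM in input, and the groups overlapped. For Cux2 the log2 ratio was -0.02 with a 95% interval of -0.24 to 0.20 (edgeR adjusted p = 0.890), so the interval does not reach the value of Cux1. The sign of this small value depended on single libraries: Cux2 was at 0.07 without IP 2 and at 0.01 without input 2, and with library sizes alone it was called lower, at -0.28 (edgeR adjusted p = 0.0295). The Cux1 locus also encodes the Golgi protein CASP, which shares its 5′ exons, and gene-level counts do not separate the products. An antisense gene, Gm16599, shares 394 exonic bases with Cux1, and since no source used here gives the strand setting, its reads cannot be set apart.

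Relatives of these factors moved in both directions. Of the CUT domain genes, Satb1, a chromatin organiser, rose by 0.35 (SE 0.10), whereas Onecut2 did not pass, at -0.36 (edgeR adjusted p = 0.105). With library sizes alone, Satb1 was no longer called and Onecut2 was called lower (-0.62, edgeR adjusted p = 0.00621). Rora, another ROR receptor, fell, also with library sizes alone. Rora is shared by layer 4 neurons, thalamus and Purkinje cells, and stood at 168 and 164 CPM in IP, against 239 and 244 CPM in input (log2 ratio -0.54, SE 0.09, edgeR adjusted p = 7.5e-05).

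Start regions were read for the markers that RefSeq places on GRCm38.p6, which matched 7 of 10 symbols (Cux1, Cux2, Rorb, Rspo1, Rasgrf2, Ptpn3 and Inhba). The 250 bases before the start are shown for Rorb and Inhba, which fell, and Ptpn3, which rose, as examples that differ in motif content and, for Inhba, in base composition. Capitals mark the motifs GGGCGG (GC box), CCAAT and TATAAA on either strand, with no overlaps between motifs in these windows.
Rorb, minus strand, chr19:19111197-19111446: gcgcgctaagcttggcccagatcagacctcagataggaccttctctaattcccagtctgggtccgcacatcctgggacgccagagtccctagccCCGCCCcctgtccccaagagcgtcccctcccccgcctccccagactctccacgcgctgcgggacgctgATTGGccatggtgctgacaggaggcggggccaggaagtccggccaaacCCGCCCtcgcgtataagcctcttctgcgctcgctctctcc
Inhba, plus strand, chr13:16011601-16011850: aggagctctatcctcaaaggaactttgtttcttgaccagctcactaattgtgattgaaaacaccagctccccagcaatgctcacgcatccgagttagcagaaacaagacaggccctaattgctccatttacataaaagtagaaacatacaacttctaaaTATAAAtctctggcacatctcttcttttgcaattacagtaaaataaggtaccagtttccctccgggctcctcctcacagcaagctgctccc
Ptpn3, minus strand, chr4:57301838-57302087: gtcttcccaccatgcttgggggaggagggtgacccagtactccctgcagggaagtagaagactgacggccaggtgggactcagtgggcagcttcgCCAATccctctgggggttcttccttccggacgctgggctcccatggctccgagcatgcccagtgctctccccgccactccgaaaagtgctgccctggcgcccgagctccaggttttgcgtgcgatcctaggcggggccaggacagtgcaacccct

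Inhba had the window lowest in G and C of the 7 markers, with 43.2% G and C and 3 CpG pairs, whereas the Rorb window had 66.0% and 18 pairs, and the Ptpn3 window 64.8% and 12 pairs. The median over the same 250 bases of all 32851 windows was 52.4% and 6 pairs. The Rorb window held 2 GC boxes and 1 CCAAT, the Ptpn3 window 1 CCAAT, and the Inhba window 1 TATAAA. Of all windows, 32.7% held a GC box, 33.8% a CCAAT and 12.4% a TATAAA. The core AGGTCA, which ROR receptors bind, was in 14.0% of all windows and in 0 of 7 marker windows. ATCGAT, a core bound by CUX proteins, was in 0.7% of all windows, and the cyclic AMP response element TGACGTCA in 1.5%, and both were in 0 of 7 marker windows. Matches are a description of these letters, on either strand, and not of binding.

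Both secreted ligands fell in IP. Rspo1 encodes R-spondin 1, which binds Lgr receptors and keeps Wnt receptors at the cell surface by drawing away the ubiquitin ligases Znrf3 and Rnf43. Rspo1 stood at 4.55 and 5.32 CPM in IP, against 9.77 and 9.43 CPM in input. The counts were 173 and 230 in IP and 444 and 408 in input, and the IP libraries lay below input without overlap. For Rspo1 the log2 ratio was -0.96 (SE 0.20, edgeR adjusted p = 0.000745), and over the alternatives it stayed between -1.22 and -0.83.

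The other R-spondins that could be tested rose. Rspo2 stood at 28.4 and 23.4 CPM in IP, against 8.16 and 6.91 CPM in input, or a log2 ratio of 1.78 (SE 0.16, edgeR adjusted p = 6.99e-08). Rspo3 stood at 41.6 and 37.4 CPM in IP, against 18.5 and 18.7 CPM in input, or a log2 ratio of 1.09 (SE 0.13, edgeR adjusted p = 1.39e-06). The 95% intervals were 1.44 to 2.12 for Rspo2, 0.82 to 1.35 for Rspo3 and -1.38 to -0.53 for Rspo1, so the interval of Rspo1 lay apart from both. Rspo4 had 2 and 0 counts in IP, against 3 and 1 counts in input, and was not tested. Of the receptors and ligases, Lgr4 and Znrf3 fell, by 0.39 (SE 0.13) and 0.60 (SE 0.13). Lgr5, Lgr6 and Rnf43 did not pass, with log2 ratios of 0.51, 0.34 and -0.73, although Rnf43 was called lower with library sizes alone (-0.99, edgeR adjusted p = 0.0221).

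Among 12 genes of the Wnt response, 10 were tested, 2 rose and 3 fell, with a median log2 fold change of -0.47. Lef1, a DNA-binding partner of beta-catenin, stood at 10.5 and 8.05 CPM in IP, against 1.87 and 1.55 CPM in input. Axin2, a feedback inhibitor that Wnt signalling induces, rose by 0.36 (SE 0.13, edgeR adjusted p = 0.0303). The Wnt co-receptor gene Lrp6 and the factors Tcf7l2 and Tcf7l1 fell, with log2 ratios of -0.75, -1.04 and -1.06. With library sizes alone 1 of the 10 rose and 4 fell, and Axin2 was not called.

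Inhba encodes the beta A subunit shared by activin A and inhibin A, and in cortex its transcript is known to follow neuronal activity. Inhba stood at 6.29 and 7.08 CPM in IP, against 12.96 and 15.1 CPM in input, with no overlap. For Inhba the log2 ratio was -1.07 (SE 0.18, edgeR adjusted p = 8.73e-05). Between libraries of the same number Inhba differed by -1.04 and -1.09 on the log2 scale, and the alternatives gave -1.33 to -0.93. Of 16 activin pathway genes, all tested, 1 rose and 3 fell, Inhba among them, with a median of -0.08, and with library sizes alone 1 rose and 6 fell, with a median of -0.34. The gene that rose was Acvr1b, a type I activin receptor, at 73.9 and 75.5 CPM in IP and 47.7 and 52.9 CPM in input (log2 ratio 0.57, SE 0.11). Inha, the inhibin alpha subunit, fell by 0.71 (SE 0.18) and Smad7, an inhibitory Smad, by 0.74 (SE 0.14). Inhbb, the other beta subunit, was not called, at 4.03 and 2.82 CPM in IP and 3.19 and 2.63 CPM in input (edgeR adjusted p = 0.563).

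Inhba moved against most of the activity-regulated genes. Of 14 such genes, 9 rose and 1 fell, with a median log2 fold change of 0.53. With library sizes alone 7 rose and 3 fell, with a median of 0.27. Most of the 14 averaged at least 50 CPM, and of all genes at 50 to 500 CPM, 43.9% rose. Inhba lies in the class of 5 to 50 CPM, where 28.1% of all genes rose. Nr4a1, an orphan nuclear receptor of the early response, rose by 1.09 (SE 0.09), and Arc, which regulates glutamate receptor trafficking, by 0.46 (SE 0.09). Homer1, a postsynaptic scaffold gene, was the member that fell, by 0.56 (SE 0.11). Egr1, an early response factor with the most reads of them, was not called, at 1006 and 1176 CPM in IP and 1214 and 1270 CPM in input (edgeR adjusted p = 0.100). With library sizes alone Egr1 was called lower (-0.45) and Arc was not called (0.21).

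Scnn1a was the marker with the highest fold change. It encodes the alpha subunit of the epithelial sodium channel, and its regulatory sequence is used in mouse Cre lines to reach layer 4. Scnn1a stood at 9.76 and 9.74 CPM in IP, against 3.96 and 4.55 CPM in input. From 371 and 421 reads in IP against 180 and 197 in input, the IP level was higher in each pairing of libraries. For Scnn1a the log2 ratio was 1.20 (SE 0.21, edgeR adjusted p = 0.000106), a 2.29-fold difference, and libraries of the same number differed by 1.30 and 1.10 on the log2 scale. Over the 11 alternatives the value stayed between 0.94 and 1.31, and it was called in all 11. The 95% interval of Scnn1a, 0.77 to 1.63, lay apart from those of the other layer 4 markers Rorb (-1.17 to -0.75) and Rspo1 (-1.38 to -0.53).

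The partner subunits of the channel were scarcely counted. Scnn1b had 2 and 0 counts in IP, against 0 and 1 counts in input, and Scnn1g had 9 and 11 counts in IP, against 2 and 8 counts in input, and neither was tested. The acid-sensing channel genes Asic1, Asic2 and Asic4 of the same superfamily did not pass, with log2 ratios of 0.10, 0.16 and 0.47. The Asic1 and Asic2 values turned negative with library sizes alone.

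Otof was not called. It encodes otoferlin, a calcium sensor of synaptic vesicle release in inner hair cells, and is used as a marker of a layer 2/3 population. Otof stood at 8.37 and 9.51 CPM in IP, against 6.56 and 8.365 CPM in input, so the lower IP library barely exceeded the higher input library. For Otof the log2 ratio was 0.26 with a 95% interval of -0.15 to 0.68 (SE 0.20, edgeR adjusted p = 0.299), and it was called under none of the 11 alternatives, which gave 0.00 to 0.46. Among the other ferlins, Dysf, which serves membrane repair in muscle, rose from low counts, with 76 and 133 counts in IP, against 51 and 45 counts in input (edgeR adjusted p = 0.0173), a call lost with library sizes alone. Myof had 60 and 78 counts in IP, against 114 and 98 counts in input, and did not pass (edgeR adjusted p = 0.281).

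Rasgrf2 had the highest level per exonic length of the markers in IP and did not pass the test. It encodes a calcium-responsive exchange factor that activates Ras and Rac. Rasgrf2 stood at 180 and 217 CPM in IP, against 158 and 181 CPM in input, so IP 2 and input 4 were level while IP 4 was the highest. For Rasgrf2 the log2 ratio was 0.23 with a 95% interval of 0.01 to 0.45 (SE 0.10, edgeR adjusted p = 0.0843). The call depended on the setting: Rasgrf2 was called higher at 0.37 without IP 2 (edgeR adjusted p = 0.00529) and at 0.34 without input 4 (edgeR adjusted p = 0.0272), and stood at -0.03 with library sizes alone (edgeR adjusted p = 0.827). Rasgrf1, the paralog, rose by 0.90 (SE 0.09, edgeR adjusted p = 1.38e-07), at 671 and 724 CPM in IP against 371 and 377 CPM in input. Its 95% interval of 0.72 to 1.08 lay above that of Rasgrf2. Of 8 Ras exchange factor genes, 3 rose (Rasgrf1, Rasgrp1 and Rasgrp2) and 2 fell (Sos2 and Rasgrp3), and Rasgrp1 turned from 0.21 to -0.05 with library sizes alone.

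Ptpn3 rose in IP. It encodes a cytoplasmic tyrosine phosphatase with FERM and PDZ domains. Ptpn3 stood at 89.2 and 107.5 CPM in IP, against 68.3 and 78.6 CPM in input, and the groups did not overlap. For Ptpn3 the log2 ratio was 0.42 (SE 0.11, edgeR adjusted p = 0.00466). The call was lost without IP 4, at 0.29 (edgeR adjusted p = 0.0629), and with library sizes alone, at 0.16 (edgeR adjusted p = 0.228). A noncoding gene on the opposite strand, Gm12536, shares 30 exonic bases with Ptpn3.

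Its closest paralog moved the other way. Ptpn4, a phosphatase of the same domain structure, stood at 105.5 and 105.4 CPM in IP, against 169 and 181 CPM in input, or a log2 ratio of -0.73 (SE 0.10, edgeR adjusted p = 4.58e-06). Ptpn13, Ptpn14 and Ptpn21, which also carry FERM domains, did not pass, at -0.26, -0.16 and -0.46, although all 3 were called lower with library sizes alone. The interval of Ptpn4 (-0.93 to -0.53) lay apart from that of Ptpn3 (0.19 to 0.66).

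**Figure D2:**
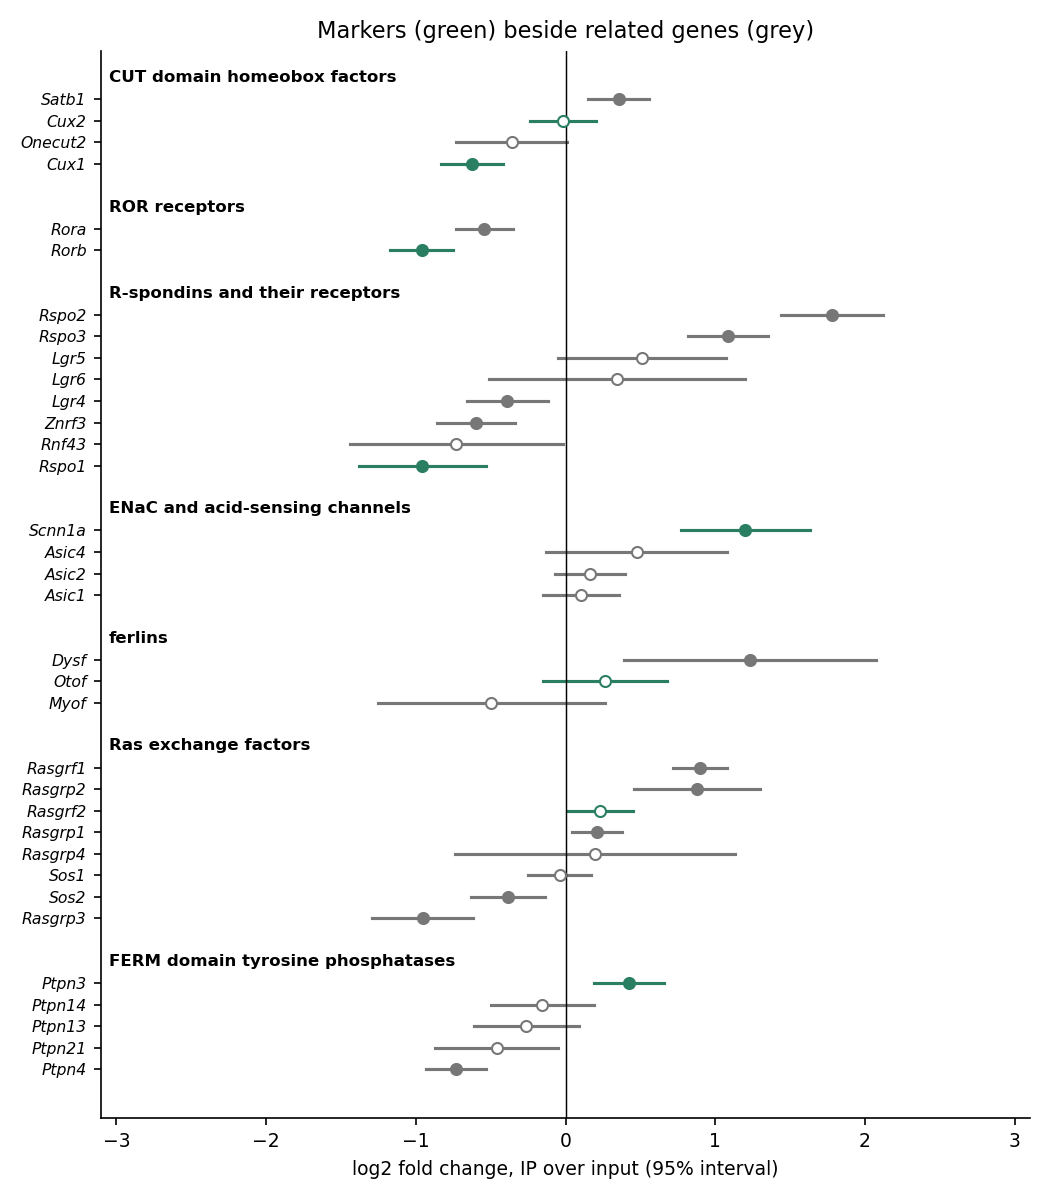
Log2 fold change of IP over input with its 95% interval for markers (green) and related genes (grey) with a mean of at least 1 CPM, where filled circles passed the test. Rspo2 (1.78) and Rspo3 (1.09) lie opposite Rspo1 (-0.96), Ptpn4 (-0.73) opposite Ptpn3 (0.42), and Rora (-0.54) on the same side as Rorb (-0.96).

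Ndst4 fell in IP and varied most between libraries. It encodes an N-deacetylase/N-sulfotransferase that modifies heparan sulfate chains. Ndst4 stood at 5.08 and 11.2 CPM in IP, against 13.2 and 21.1 CPM in input. The level in number 4 was 2.20 times that in number 2 in IP and 1.60 times in input, and the higher IP library lay just below the lower input library. For Ndst4 the log2 ratio was -1.07 (SE 0.27, edgeR adjusted p = 0.00284), with a 95% interval of -1.63 to -0.51. Its size rested on single libraries, at -1.74 without IP 4, -0.60 without IP 2, -1.36 without input 2 and -0.69 without input 4, and DESeq2 did not call it (-1.07, SE 0.64, DESeq2 adjusted p = 0.170).

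Other enzymes of heparan sulfate synthesis moved in both directions. Of 15 genes besides Ndst4, all tested, 2 rose and 6 fell, with a median log2 fold change of -0.16. With library sizes alone 2 rose and 9 fell of the 16 genes that include Ndst4. Ndst3, the paralog with the highest fold decrease, stood at 23.1 and 25.98 CPM in IP, against 56.2 and 52.8 CPM in input (log2 ratio -1.15, SE 0.12, edgeR adjusted p = 3.3e-07). Ndst1 fell by 0.36 (SE 0.10), and Ndst2 did not pass, at -0.27 (edgeR adjusted p = 0.283), but was called lower with library sizes alone (-0.52). Hs3st4, a sulfotransferase that is also a layer 6 marker, fell by 1.20 (SE 0.12). Ext2, a polymerase of the chain, was called higher although the groups overlapped, at 64.2 and 31.7 CPM in IP and 20.99 and 33.7 CPM in input.

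Levels of different genes were compared per kilobase (kb) of annotated exon. In IP the order ran from Rasgrf2 (21.5 CPM per kb) through Rorb (13.9), Ptpn3 (13.6), Cux2 (6.943), Cux1 (6.936), Rspo1 (2.55), Scnn1a (2.36), Otof (1.13) and Inhba (1.05) to Ndst4 (0.693). In input it ran from Rorb (26.97 CPM per kb) through Rasgrf2 (18.3), Cux1 (10.7), Ptpn3 (10.1), Cux2 (7.04), Rspo1 (4.95), Inhba (2.19), Ndst4 (1.46) and Scnn1a (1.03) to Otof (0.944). Rorb stood above Rasgrf2 in both input libraries and below it in both IP libraries, and Scnn1a stood above Inhba in both IP libraries and below it in both input libraries. Neighbours whose libraries overlapped were Rorb and Ptpn3, Cux1 and Cux2, Rspo1 and Scnn1a, and Otof and Inhba in IP, and Cux1 and Ptpn3, and Scnn1a and Otof in input. Per kb of the longest annotated transcript, Cux1 stood at 10.8 in IP and 16.7 in input, above Cux2 at 7.97 and 8.08, because its merged exons span 20.02 kb and its longest transcript 12.86 kb. On that scale the first places in input were Rorb (32.2 CPM per kb) and Rasgrf2 (29.2 CPM per kb), whose libraries overlapped.

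**Figure D3:**
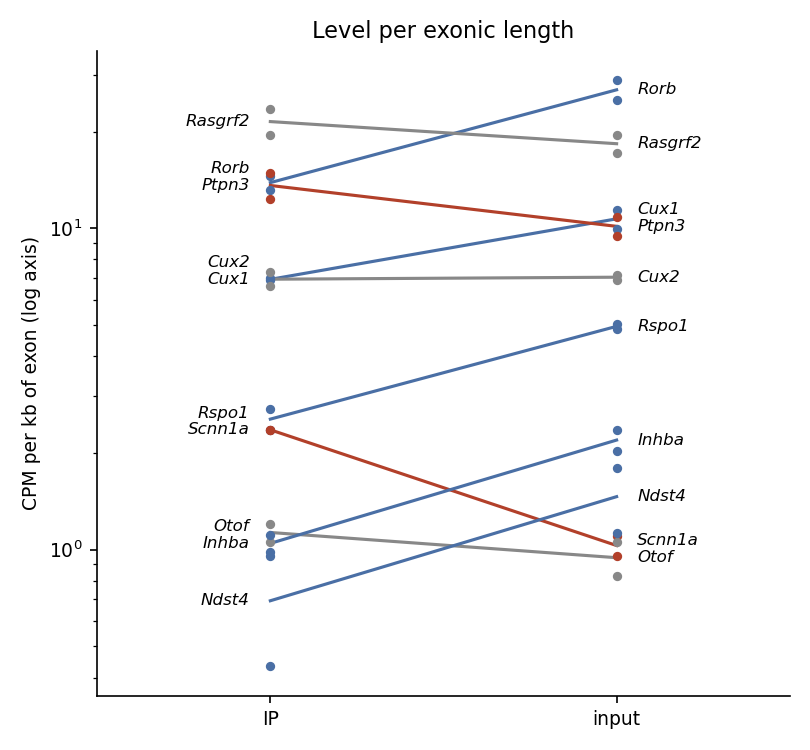
CPM per kb of exon on a log axis for each marker, IP on the left and input on the right, with a point per library and lines joining the means, coloured red for higher in IP, blue for lower and grey for not called. The lines of Rorb and Rasgrf2 cross, as do, among others, those of Scnn1a with Inhba and Ndst4.

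Genes with at least 8 kb of exon fell more often than others, but the medians did not change steadily with length. Of 2693 such genes, 634 rose (23.5%) and 793 fell (29.4%), with a median log2 fold change of -0.09. Of 4611 genes of 2 to 4 kb, 1277 rose (27.7%) and 651 fell (14.1%), with a median of 0.10. Under 2 kb 18.7% rose and 17.1% fell (median -0.05), and at 4 to 8 kb 27.2% rose and 19.2% fell (median 0.05). Over all genes tested 23.4% rose and 22.4% fell. Cux1, Cux2, Rorb, Rasgrf2 and Ndst4 have over 8 kb of exon. The trend on GC content and length over all genes ran at -0.22 for Ndst4, -0.19 for Rorb and -0.16 for Cux1, below their own fold changes in size, and at 0.14 for Rspo1 and 0.17 for Scnn1a. After correction for it the 5 markers that fell were still called lower, and Rasgrf2 was called higher, at 0.35 (edgeR adjusted p = 0.0118).

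Other markers of the same layers also moved in both directions. Of 17 further layer 2/3 and 4 genes tested, 3 rose and 6 fell, with a median log2 fold change of -0.19. Those called with the most reads were Calb1, a calcium buffer, which rose by 0.38 (SE 0.11), a call lost with library sizes alone (0.12, edgeR adjusted p = 0.395), and Zmat4 and Kcnh5, a zinc finger gene and a potassium channel gene, which fell by 0.31 (SE 0.10) and 0.70 (SE 0.11). Among 20 layer 5 genes 6 rose and 6 fell (median 0.08), and among 21 layer 6 and 6b genes 9 rose and 3 fell (median 0.34). Over all genes tested 23.4% rose and 22.4% fell. At 5 to 50 CPM 28.1% of all genes rose and 20.4% fell, and at 50 to 500 CPM 43.9% rose and 21% fell. Whether the lists differ from these shares was not tested. Crym is in both deep-layer lists. With library sizes alone the medians were -0.58 for the 10 markers and -0.45 for the further layer 2/3 and 4 genes. For layer 5 and for layer 6 and 6b they were -0.18 and 0.08, which kept that order. The order was not kept when each list was left without its gene of most reads (Rorb, Lamp5, Tshz2 and Nr4a2). The medians were then -0.02 for the markers, -0.25 for the further layer 2/3 and 4 genes, 0.10 for layer 5 and 0.20 for layer 6 and 6b. The marker median lies midway between Cux1 (-0.625) and Cux2 (-0.02), so it depends on which marker is left out. Without a marker that did not fall it is -0.625.

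**Figure D4:**
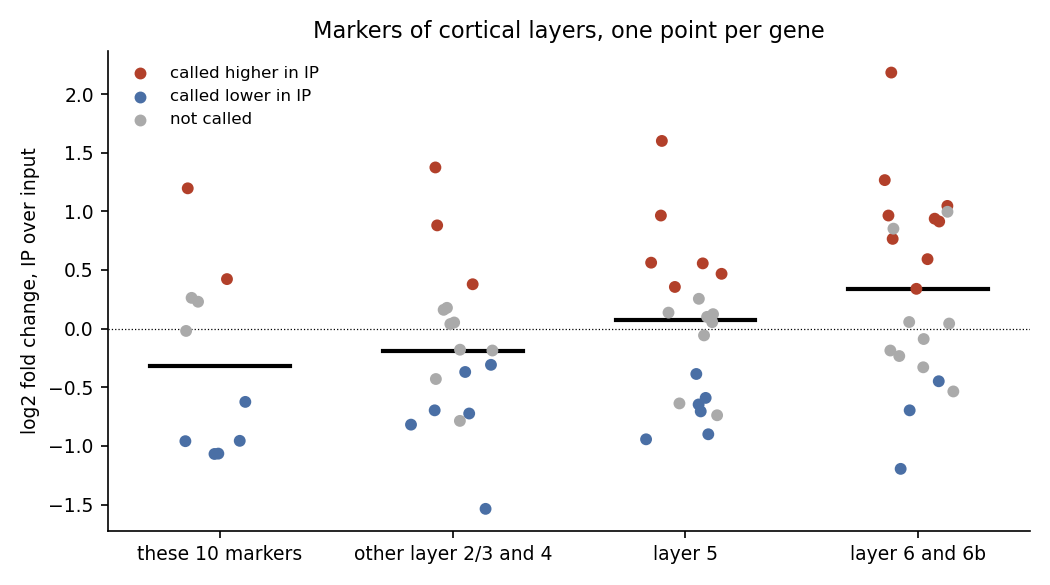
Log2 fold change of IP over input for each gene of 4 layer lists, 1 point per gene, red for called higher, blue for called lower and grey for not called, with a bar at the median. The medians are -0.32, -0.19, 0.08 and 0.34 from the 10 markers to layer 6 and 6b, and each list spreads to both sides of 0. The median of the markers lies midway between Cux1 (-0.625) and Cux2 (-0.02), and is -0.02 without Rorb.

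The genes most like the extremes were taken from the layer lists by the distance between centred log2 CPM profiles over the 4 libraries, among 66 candidates. Closest to Scnn1a were Nr4a2 (distance 0.10), Nnat (0.24) and Adamts2 (0.33), with log2 ratios of 1.27, 1.05 and 0.88. Nr4a2, an orphan nuclear receptor, and Nnat, the imprinted gene neuronatin, are in the layer 6 and 6b list, and Adamts2, a procollagen protease, in the layer 2/3 and 4 list. Closest to Ndst4 were Hs3st4 (distance 0.75), Inhba (0.76) and Pou3f2 (0.78), with log2 ratios of -1.20, -1.07 and -0.82. Pou3f2, also called Brn2, is a POU factor of upper layer neurons. With 4 libraries, profiles of this kind mostly reflect the group difference.

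Some of the markers are also transcribed outside upper layer neurons, and values for markers of other cells are given here. Summed over 10 genes, GABAergic markers stood at 939 and 1147 CPM in IP, against 1040 and 1091 CPM in input, with 1 higher and 4 lower. Without Gad2, the one with the most reads, the other 9 summed to 563 and 633 CPM in IP, against 538 and 540 CPM in input. Of these 9, still 1 was higher and 4 lower. Astrocyte markers stood at 2785 and 2915 CPM in IP, against 3450 and 3521 CPM in input, with 3 higher (Aldoc, Gfap and Aldh1l1) and 5 lower of 10. That sum rested on the glutamate transporter gene Slc1a2, and the other 9 summed to 1066 and 1176 CPM in IP, against 865 and 846 CPM in input. The astrocyte water channel gene Aqp4 stood at 58.4 and 59.6 CPM in IP, against 75.3 and 79.95 CPM in input. Oligodendrocyte lineage markers stood at 1281 and 1324 CPM in IP, against 1669 and 1568 CPM in input, with 3 higher and 6 lower of 10. Microglial markers stood at 71.9 and 77.5 CPM in IP, against 77.3 and 65.6 CPM in input, with 1 higher and 2 lower of 10, and vascular markers at 42.1 and 32.1 CPM in IP, against 49.0 and 34.5 CPM in input, with 1 lower of 10. No defining marker was at 0 in either group. Cortical glutamatergic markers stood at 8049 and 8214 CPM in IP, against 5832 and 6115 CPM in input, with 7 higher and 1 lower of 10. All of these except Emx1 averaged 50 CPM or more. Of all genes, 43.9% rose at 50 to 500 CPM and 63.2% at 500 CPM and over. Whether the count of glutamatergic markers that rose goes beyond these shares was not tested. With library sizes alone 4 glutamatergic markers were higher and 1 lower, 0 GABAergic higher and 5 lower, 3 astrocyte higher and 6 lower, 3 oligodendrocyte higher and 7 lower, 1 microglial higher and 2 lower, and 0 vascular higher and 5 lower. The part of these cells in the values of the 10 markers was not tested.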

How the data were processed

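RNA of 2 IP and 2 input libraries, grouped by their titles, was sequenced. The authors deposited raw whole-number read counts, 1 file per library. The submitters' processing notes name STAR 2.0.0e, HTSeq and mm10. No source used here gives the annotation, strand setting or library kit. Lines that name no gene were dropped: records outside features were 7.31% and 7.54% in IP and 14.9% and 13.5% in input, and those not aligned uniquely 37% and 38% in IP and 32.1% and 30.7% in input, so genes with close copies are undercounted.

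The test was edgeR 4.0.16 (R 4.3.3) with TMM, filterByExpr (minimum count 10, total 15) and the two-sided quasi-likelihood test of IP over input, adjusted by Benjamini-Hochberg over 16600 genes. Intervals are 95% from the fit. Replicates differed beyond sampling noise (chi-square per degree of freedom 22.5 in IP and 15.2 in input). In data simulated for IP against input, on 16283 genes, the test recovered 68% of genes changed 1.5-fold and 98% at 2-fold. At 4-fold and 8-fold it recovered 100% (50 genes for each fold), with 12 false calls among 16083 unchanged genes. Only genes of at least 5 CPM were changed. As many genes were raised as lowered, so an error of scaling was not simulated. The few false calls therefore do not cover the difference between TMM and library sizes alone. Counts were drawn with the spread typical of a gene's level, so extra spread of single genes, as in Ndst4, was not simulated.

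The markers and lists were chosen with earlier results of these data known. Named genes were the 10 markers, their relatives (up to 8 a list), up to 3 genes of other lists by read number among those called, Cbln1, and the 3 nearest profiles (log2 CPM, prior count 0.5) of the extreme markers; some further names were chosen after their values were seen. Exons, overlaps and GC content came from GENCODE vM21 on GRCm38 (23155 of 32531 names matched by symbol, 773 by synonym). Alternatives were DESeq2 1.42.0; its size factors within edgeR; unscaled library sizes; a missing or stricter low-count filter (1 CPM in 2 libraries); a block for the replicate number; omission of each library; and loess correction for GC content and exonic length. Results for some related genes are not reported here.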

Additional observations from a re-analysis of the deposited data

How the results depend on the processing

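Over 11 alternatives for each of the 10 markers, 98 of the 110 values kept their direction and their side of the threshold. Rorb, Cux1, Rspo1, Inhba and Scnn1a were called in the same direction in all 11. Values that turned sign were Cux2 without IP 2 (0.07) and without input 2 (0.01), within a range of -0.09 to 0.07 without single libraries, and Rasgrf2 with library sizes alone (-0.03), where Otof lay at 0.00. The count of markers lower in IP was 4 to 6 over the alternatives and 5 without any of the libraries. The count of markers higher in IP was 2, but 1 with library sizes alone, where the median of all genes lay at -0.29, and 3 without a filter on low counts, with the replicate block and with the correction for GC content and length. It ranged from 1 to 3 when single libraries were left out, being 1 without IP 4. In those fits the lone library of a group was assumed to vary like the other group.

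Equal numbers were not stated to share an animal. Deviations from the group means correlated at 0.190 between same-numbered libraries (genes of 5 CPM or more), and with 2 pairs this does not show a pairing. With a replicate block 4314 genes rose and 4037 fell over all genes, and 3 markers rose and 5 fell. Rasgrf2 was then called, at 0.23 (edgeR adjusted p = 0.0166). Without a filter on low counts it was also called (edgeR adjusted p = 0.0357). GC content and length were known for 91% of genes tested. Every marker held at least 173 counts in each library, and the SE was 0.20 to 0.21 for Rspo1, Scnn1a and Otof, against 0.10 for the more deeply counted Cux1 and Rorb.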

Other observations

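Markers of neighbouring brain regions, which a cortex dissection can include, are given as values. Striatal projection neuron markers stood at 464 and 527 CPM in IP, against 648 and 732 CPM in input, summed over 10 genes, with 1 higher and 7 lower, or 9 lower with library sizes alone. Meis2, a homeobox factor and the one with the most reads, stood at 95.4 and 110.2 CPM in IP, against 171 and 218 CPM in input. Thalamic markers stood at 114 and 101 CPM in IP, against 98.4 and 94.4 CPM in input, with 4 higher and 2 lower of 10, but 2 higher and 4 lower with library sizes alone. Slc17a6, the vesicular glutamate transporter of thalamus, rose by 0.38 (SE 0.12, edgeR adjusted p = 0.0167), a call lost with library sizes alone (0.12, edgeR adjusted p = 0.442). Hippocampal markers stood at 199 and 191 CPM in IP, against 205 and 212 CPM in input, with 3 higher and 2 lower of 9 tested. Fibcd1, Tdo2 and Dsp rose, with log2 ratios of 1.77, 2.07 and 2.65, the last 2 from few reads, whereas Zbtb20, a zinc finger factor of hippocampal neurons, and Prox1 fell, by 1.31 (SE 0.14) and 0.35 (SE 0.14). Lef1 and Tcf7l2 are in both the thalamic and the Wnt lists, and Wfs1 in the hippocampal and the layer 2/3 and 4 lists.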
